A study of Homo sapiens with 16 samples.

Results

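The regions described here were ChIP-seq peaks whose summit lay 0 to 1000 bp downstream, in the direction of transcription, of the nearest protein-coding gene start, with no protein-coding start on the opposite strand within 1 kb of the peak. ChIP-seq recovers and sequences the DNA fragments that come down with a protein, a peak is an interval where those fragments pile up, and the summit is its highest point. There were 430 such downstream peaks among 1468 peaks of wild-type cells, 719 among 2451 of POLK-/- cells and 1960 among 5945 of DDX23-/- cells. They made up 29.3% of the wild-type list (95% exact binomial interval 27.0 to 31.7), 29.3% for POLK-/- (27.5 to 31.2) and 33.0% for DDX23-/- (31.8 to 34.2). With the 1468 peaks of smallest p in each list the shares were 29.3%, 27.4% and 28.7%, so the higher DDX23-/- share was not kept at equal length. Gene starts were the 5′ ends of gene records in GENCODE release 44 on GRCh37 coordinates, and the files used hg19 coordinates.

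The series held 16 samples of HEK293T cells, a human embryonic kidney line that carries SV40 large T antigen, and peak lists from 3 of them were analysed here. The 3 lists came from untreated cells labelled WT, POLK-/- or DDX23-/-, each with Pol κ (the labels' "Polk") named as the target of the pulldown. The labels gave 2 pulldown libraries and 2 control libraries to each genotype, but only 1 list stood for a genotype, and the sources did not state which libraries entered it. The labels described pulldown on anti-FLAG beads and gave no tag to these 3 genotypes, and they did not say whether a knockout line was 1 clone. These samples belong to a set of 12 whose titles begin with R_, a prefix that the labels do not explain, and the study's paper does not describe that set. A peak list holds no expression values, so neither the cell type nor the loss of a knocked-out gene could be checked from it. The list from cells labelled POLK-/-, which should lack the protein named as the target, nevertheless held 719 downstream peaks. With 1 list per genotype there was no replicate check of any difference between genotypes, no test was run, and every interval below covers counting over peaks or fragments only.

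DNA polymerase κ (Pol κ), the product of POLK, is a Y-family translesion polymerase that inserts nucleotides opposite damaged guanines which stall the replicative polymerases. DDX23 is a DEAD-box RNA helicase of the spliceosome. The first kilobase of a gene is where RNA polymerase II initiates, pauses and begins to elongate, and at CpG-island promoters it is rich in G and C with an excess of G on the RNA-like strand. That excess, the GC skew, is the number of G minus the number of C divided by their sum, and G-rich RNA-like strands are known for forming RNA–DNA hybrids and G-quadruplexes. Genes transcribed by RNA polymerase III can also lie in this interval, and tRNA genes among them carry 2 promoter elements inside the transcribed unit, the A box and the B box.

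To show the letters that the composition results below rest on, the 100 bases around the summit were printed for 8 of the 10 downstream peaks of highest fold in all 3 lists whose window touched no annotated exon of a protein-coding gene. They were read from GRCh37 on the strand of the gene, 5′ to 3′, centred on the summit in the DDX23-/- list. The peaks of 7 genes with higher folds, described below for their A-box and B-box letters, were not among these windows. Capitals mark runs of 3 or more G.
FOXO3 at chr6:108881804-108881903, plus strand: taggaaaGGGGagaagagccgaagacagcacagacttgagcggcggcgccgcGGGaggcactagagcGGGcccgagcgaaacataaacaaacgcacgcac
ERCC1 at chr19:45981876-45981975, minus strand: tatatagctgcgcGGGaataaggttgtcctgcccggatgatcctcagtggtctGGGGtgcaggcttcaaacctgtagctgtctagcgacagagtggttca
SYNCRIP at chr6:86352917-86353016, minus strand: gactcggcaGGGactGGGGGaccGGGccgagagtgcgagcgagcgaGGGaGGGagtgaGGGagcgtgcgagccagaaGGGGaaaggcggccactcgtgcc
KANK2 at chr19:11308047-11308146, minus strand: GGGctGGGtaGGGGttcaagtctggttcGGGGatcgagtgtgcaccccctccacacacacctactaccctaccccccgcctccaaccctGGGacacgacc
CDH2 at chr18:25757202-25757301, minus strand: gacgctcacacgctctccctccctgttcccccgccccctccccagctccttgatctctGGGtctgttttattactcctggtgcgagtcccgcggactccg
PALS1 at chr14:67707742-67707841, plus strand: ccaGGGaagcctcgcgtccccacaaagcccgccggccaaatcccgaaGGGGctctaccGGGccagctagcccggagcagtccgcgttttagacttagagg
SREBF1 at chr17:17739642-17739741, minus strand: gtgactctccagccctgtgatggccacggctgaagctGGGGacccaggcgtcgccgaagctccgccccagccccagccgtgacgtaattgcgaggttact
RCOR3 at chr1:211432257-211432356, plus strand: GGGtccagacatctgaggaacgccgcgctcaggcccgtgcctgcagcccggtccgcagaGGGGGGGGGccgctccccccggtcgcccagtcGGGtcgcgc
SYNCRIP, which encodes an hnRNP-like RNA-binding protein, held 7 runs of G and no run of 3 or more C, and had the highest GC skew of the windows shown, 0.389. The window of CDH2, the N-cadherin gene, went the other way with 1 run of G against 6 of C and a skew of -0.375. Of the 8 windows 3 had a skew above 0 and 4 below it, and RCOR3 stood at 0.

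Downstream summits were concentrated near the start, with 49.6% to 54.4% of them within the first 100 bp. The median distance was 89 bp for wild-type cells (95% interval of the median 75 to 100), 88 bp for POLK-/- cells (78 to 101) and 102 bp for DDX23-/- cells (92 to 113). In the wild-type list 234 of 430 summits (54.4%) lay at 0 to 99 bp and 295 (68.6%) at 0 to 199 bp. For POLK-/- the shares were 53.4% and 69.8%, and for DDX23-/- 49.6% and 62.9%, whose intervals (47.4 to 51.9 and 60.7 to 65.0) did not reach the POLK-/- shares. That order depended on list length, since with the 1468 peaks of smallest p in each list the median distance was 89, 77 and 64.5 bp. Peaks on the other side of the start, with a summit 1 to 1000 bp upstream, were fewer in each list, at 328, 642 and 1575. Downstream summits trailed further from the start of the gene record, and 86.7%, 86.4% and 84.5% of them lay within 499 bp against 92.7%, 92.5% and 93.7% of upstream summits. Of downstream summits at 500 to 1000 bp, 49.1%, 46.9% and 46.1% lay before the first base of the Ensembl canonical transcript. Measured from any annotated transcript start, the median distances were shorter in every list. What the choice of start contributes to the tail was not tested.

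**Figure D1:**
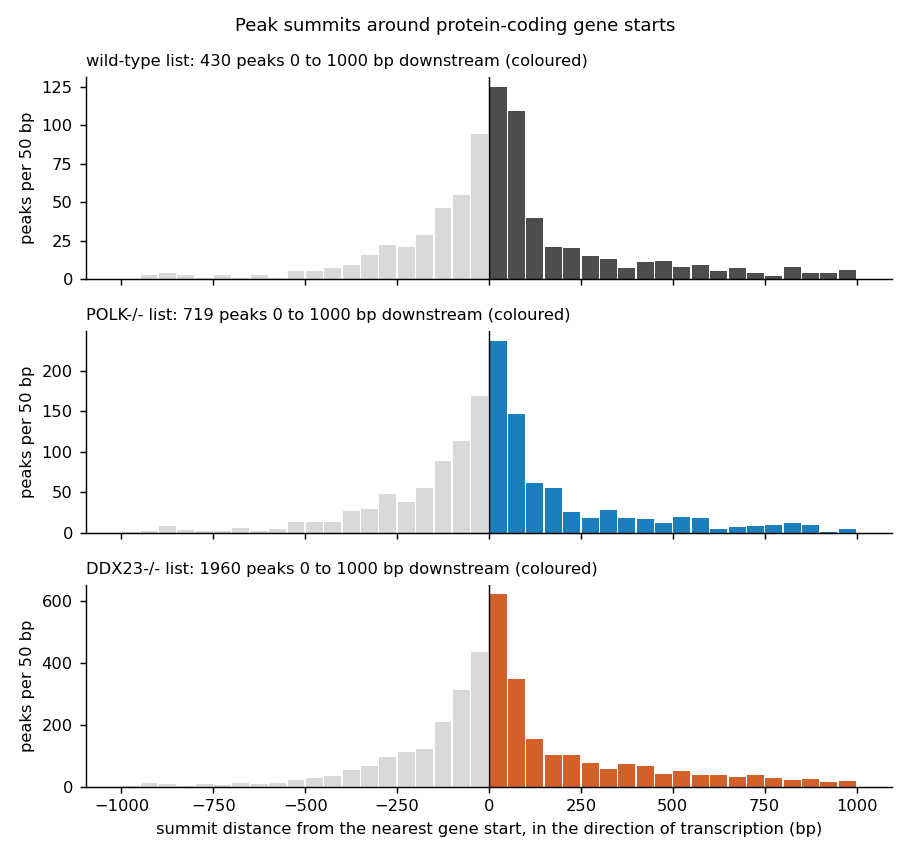
Number of peak summits (y axis) in 50-bp bins of distance from the nearest protein-coding gene start in the direction of transcription (x axis, bp), 1 panel per list, with downstream peaks coloured and upstream peaks in grey. In the wild-type list the 2 fullest bins, 0 to 49 bp and 50 to 99 bp, held 125 and 109 summits, and the next bin downstream held 40.

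Fold, the deposited ratio of fragments at the summit to the local background after 1 was added to both, had a median at downstream peaks of 7.22 for wild-type (7.02 to 7.63), 6.88 for POLK-/- (6.67 to 7.13) and 7.32 for DDX23-/- (7.15 to 7.44). The order of the lists depended on the scale and the length, since without the added 1 the medians were 14.8, 10.7 and 10.8, and with equal list lengths the deposited medians were 7.22, 8.89 and 14.8. Medians of upstream peaks were 7.63 (7.27 to 8.09), 6.96 (6.71 to 7.24) and 7.28 (7.12 to 7.46), so the intervals of the upstream and downstream medians overlapped in every list. Behind a downstream peak stood a median of 13, 26 and 33 fragments at the summit in the 3 lists, and the weakest rested on 6, 11 and 14. Fold fell with distance in the DDX23-/- list, from a median of 8.23 (7.72 to 8.66) at 0 to 49 bp to 6.80 (6.36 to 7.21) at 100 to 199 bp, and it was 6.93 (6.51 to 7.37) at 500 to 1000 bp. In the wild-type list the intervals of the nearest and farthest bins overlapped, with medians of 7.65 (7.07 to 8.14) and 7.23 (6.30 to 8.13). At the edges of the rule, DENR and TMEM243 summits lay at the start itself in the wild-type list (fold 7.65 and 4.52) and those of BAD and KIF18B fell 2 bp short of it (fold 9.54 and 7.11). At the far edge FERMT2 and MAP3K11 were inside at 984 bp (fold 5.88 and 5.82), while HJV at 1008 bp and ADCK5 at 1029 bp were outside (fold 6.69 and 10.8). In the POLK-/- list GUSB and MBIP at 0 bp and ERC1 at 997 and NBDY at 984 bp were the outermost members, and in the DDX23-/- list these were ATF7 and FBXW8 at 0 bp with PANK1 at 1000 and GPD2 at 997 bp. FERMT2, an integrin-activating kindlin, shows what the limit does, because its peak was inside in the wild-type list and outside in the DDX23-/- list, where the summit lay at 1002 bp.

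Placed on the Ensembl canonical transcript, most downstream summits fell in the first exon. In the wild-type list 227 of 430 lay in untranslated sequence of exon 1 (52.8%) and 44 in its coding sequence (10.2%), while 45 lay in the first intron (10.5%, 7.74 to 13.8) and 1 in a later exon. The other 113 (26.3%) lay before the first base of the canonical transcript, because the gene record, which spans all transcripts of a gene, began further upstream. Of 719 POLK-/- summits 336 lay in untranslated and 76 in coding sequence of exon 1, 84 in the first intron (11.7%) and 220 before the canonical transcript. Of 1960 DDX23-/- summits 953 lay in untranslated and 152 in coding sequence of exon 1, 259 in the first intron (13.2%, 11.7 to 14.8) and 588 before the transcript. With the 1468 peaks of smallest p in each list, the first-intron shares were 10.5%, 9.20% and 7.58%, the reverse order. For comparison, the position at the same median offset from all 17485 eligible starts fell in exon 1 for 59.7% of genes and in the first intron for 9.87% at the wild-type offset, and for 57.8% and 12.4% at the DDX23-/- offset. All starts were read at 1 offset per list, while summits spread out to 1000 bp, so the 2 sets differ in position. The wild-type first-intron share was 4.59% of summits at 50 to 99 bp and 23.1% at 200 to 499 bp. Among the 1166 DDX23-/- downstream peaks that overlapped no peak of the other lists, 195 (16.7%, 14.6 to 19.0) lay in the first intron, against 19 of the 251 (7.57%, 4.62 to 11.6) that were downstream peaks in all 3 lists. The other lists leaned the same way, with 4 of 13 (9.09 to 61.4%) against 24 of 253 (6.17 to 13.8%) for wild-type. For POLK-/- these were 8 of 32 (11.5 to 43.4%) against 23 of 252 (5.87 to 13.4%). In both of these lists the intervals overlapped. The DDX23-/- peaks of that list only lay at a median of 138 bp (121 to 157), against 92 bp (73 to 128) for those in all 3. What distance contributes to these shares was not tested.

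Downstream peaks stood on sequence with more G than C on the RNA-like strand. The median GC skew of the 300 bp around the summit was 0.0971 for wild-type (0.0829 to 0.108), 0.0816 for POLK-/- (0.0653 to 0.0968) and 0.0905 for DDX23-/- (0.0829 to 0.0976). It was above 0 at 330 of 430 (76.7%), 501 of 719 (69.7%) and 1406 of 1960 (71.7%) downstream peaks. Upstream peaks had medians of -0.0391, -0.0397 and -0.0186, with 38.7%, 39.3% and 42.8% above 0. At the wild-type median offset of 89 bp, all 17485 eligible starts together had a median skew of 0.0357 (0.0330 to 0.0382) and 59.1% were above 0. Downstream windows were also richer in G and C, at a median of 69.0% in the wild-type list against 63.7% for all starts at that offset. The ratio of observed to expected CpG was 0.889 (0.879 to 0.903) against 0.709. Wild-type upstream peaks had 66.0% (64.7 to 66.7) and 0.870 (0.850 to 0.887), so the high CpG ratio was not particular to the downstream side. In 100 bp around the summit the medians at downstream peaks were higher, at 0.155, 0.155 and 0.143. That narrower window was not read at upstream peaks or at all starts, so it has no comparison.

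Genes with an upstream peak also changed from negative to positive skew across their starts. In the first 100 bp of the gene, mean skew was 0.133 ± 0.0104 (SEM, n = 425 starts) for genes with a downstream peak alone in the wild-type list, 0.104 ± 0.0112 (SEM, n = 322) for genes with an upstream peak alone and 0.0388 ± 0.00156 (SEM, n = 17485) for all. The DDX23-/- list gave 0.110 ± 0.00466 (SEM, n = 1851) and 0.0810 ± 0.00519 (SEM, n = 1469) for the same groups. From 200 to 101 bp before the start the order was reversed in size, with -0.0271 ± 0.0118 for wild-type genes with a downstream peak and -0.0860 ± 0.0119 for those with an upstream peak. The groups also lay apart from 300 to 201 bp before the start, at -0.0132 ± 0.0109 (downstream peak) and -0.0459 ± 0.0129 (upstream peak) for wild-type. DDX23-/- gave -0.0116 ± 0.00508 and -0.0459 ± 0.00590 there. Among the knockout lists, genes with an upstream peak had the lower mean in every bin further than 100 bp before the start. After the first 100 bp of the gene the order varied in each list, and for wild-type it also varied before the start.

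**Figure D2:**
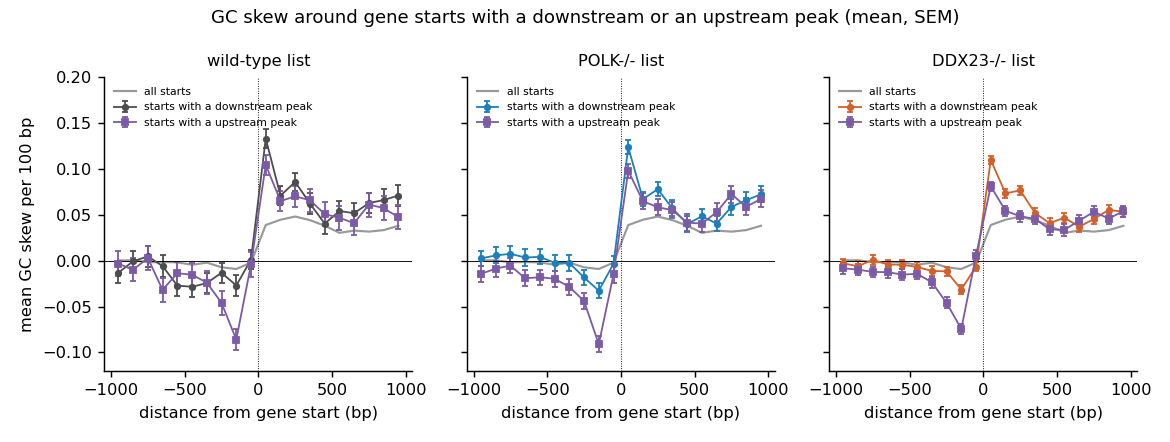
Mean GC skew in 100-bp bins (y axis, G minus C over G plus C on the RNA-like strand) against distance from the gene start (x axis, bp), 1 panel per list. Points with SEM bars are genes with a downstream or an upstream peak alone and the grey line is all 17485 eligible starts; in the wild-type panel the first downstream bin stands at 0.133 for genes with a downstream peak and 0.0388 for all.

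The letters of a potential G-quadruplex, 4 runs of at least 3 G with 1 to 7 bases between them, followed the same side. They stood on the RNA-like strand at 26.5% of wild-type downstream peaks (22.4 to 31.0) and on the template strand at 11.6% (8.76 to 15.0). The POLK-/- list gave 20.4% and 12.2%, and the DDX23-/- list 22.9% (21.1 to 24.8) and 15.6% (14.0 to 17.2). At upstream peaks the order was turned round, with 14.6% on the RNA-like and 19.2% on the template strand in the wild-type list. All starts at the wild-type offset held them at 17.1% and 14.4%.

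Of 10 short motifs searched on both strands in the same 300 bp, GGGCGG, the GC box bound by SP1-family factors, was the most frequent. It stood on the RNA-like strand at 55.1% of wild-type (50.3 to 59.9), 49.9% of POLK-/- and 56.8% of DDX23-/- downstream peaks, and at 35.0%, 35.0% and 34.3% of all starts at those offsets. On either strand it stood at 75.6%, 70.1% and 76.5% of downstream peaks and at 69.5%, 67.9% and 74.5% of upstream peaks. The GC box was thus not particular to the downstream side. Upstream peaks of each list held it less often on the RNA-like strand (42.4% in wild-type). On the template strand they held it more often (48.2% against 41.9% in wild-type). TATAAA, the letters of a TATA box, was below all starts on the RNA-like strand, with 2.79%, 2.23% and 1.53% of downstream peaks against 6.78%, 6.79% and 6.66%. Upstream peaks held it on that strand at 5.49%, 3.12% and 2.79%. Windows of all starts sat at 1 offset per list, while downstream windows followed summits out to 1000 bp. The 2 sets thus differ in position, and what position contributes to this or any other motif share was not tested. CCGGAAG, found in sites of ETS-family factors, stood on the RNA-like strand at 10.0%, 11.5% and 11.9% against 5.47%, 5.46% and 5.35%, and at 11.6%, 12.5% and 11.9% of upstream peaks. CCAAT (18.8%, 20.2% and 18.2% against 13.7%, 13.8% and 12.4%), TGACGTC (4.19%, 5.42% and 4.69% against 2.34%, 2.36% and 2.04%) and GCATGCG (3.26%, 4.73% and 4.34% against 2.42%, 2.41% and 2.29%) were likewise above all starts, the last of them within its interval in the wild-type list (1.79 to 5.40). Upstream peaks held CCAAT at 26.5%, 25.2% and 22.9%, TGACGTC at 4.57%, 5.61% and 4.51% and GCATGCG at 6.40%, 7.32% and 5.84%, so these letters were not particular to the downstream side. The splice-donor letters GTGAGT were near the level of all starts, with 14.7%, 13.4% and 13.9% against 14.5%, 14.5% and 14.8%. The other donor form, GTAAGT, was rarer at downstream peaks, with 3.49% (1.97 to 5.69), 3.20% and 3.16% against 7.03%, 7.01% and 7.22%. Of the 15 wild-type windows with it, 12 (80.0%, 51.9 to 95.7) held it at an annotated intron start. At all starts the share was similar, with 1025 of 1229 windows (83.4%).

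AAGATGG, found in sites of the zinc-finger factor YY1 and holding an ATG, was unequal between strands. It stood on the RNA-like strand at 42 of 430 wild-type downstream peaks (9.77%, 7.13 to 13.0), at 84 of 719 for POLK-/- (11.7%, 9.43 to 14.3) and at 200 of 1960 for DDX23-/- (10.2%, 8.90 to 11.6). On the template strand these shares were 3.02%, 2.64% and 1.84%. Upstream peaks held it on the RNA-like strand at 6.10%, 3.89% and 4.57%, and all starts at 4.11%, 4.10% and 4.24%. In 27 of the 42, 49 of the 84 and 117 of the 200 windows the ATG in it was the annotated start codon of the gene. These were 64.3% (48.0 to 78.4), 58.3% (47.1 to 69.0) and 58.5% (51.3 to 65.4) of the windows with the letters. The same share was 55.0%, 48.0% and 45.8% at upstream peaks and 44.2%, 44.2% and 44.1% at all starts. The wild-type and POLK-/- intervals held the upstream shares. AAGATGG shares its first letters with the end of CCGGAAG, and the motifs overlapped in 1 of the 200 DDX23-/- windows and in 0 of the others.

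Summits lay near AAGATGG more often than near any other of the motifs searched on that strand. Of windows that held it on the RNA-like strand, 18 of 42 (42.9%, 27.7 to 59.0), 34 of 84 (40.5%, 29.9 to 51.7) and 75 of 200 (37.5%, 30.8 to 44.6) had the summit within 25 bp of it. An even spread of 1 copy per window would place 16.7% there. Where a window held several copies the nearest was taken, so 16.7% is too low a yardstick for frequent letters such as GGGCGG. Upstream windows with AAGATGG on that strand gave 10.0% (1.23 to 31.7), 8.00% (0.984 to 26.0) and 16.7% (8.92 to 27.3). What the nearness of summits and start codons to the gene start contributes was not tested. At downstream peaks of the DDX23-/- list GTGAGT gave 16.5% (12.3 to 21.5), CCGGAAG 24.9% (19.5 to 31.0), GGGCGG 27.0% (24.5 to 29.8) and CCAAT 8.68% (5.98 to 12.1). Median fold differed little between downstream peaks with and without AAGATGG, at 7.16 (6.23 to 8.33) and 7.22 (7.02 to 7.63) in the wild-type list and 7.94 (7.37 to 8.69) and 7.21 (7.09 to 7.38) in the DDX23-/- list. Of the 117 DDX23-/- downstream peaks with AAGATGG at an annotated start codon, 111 could be considered for printing, and the 6 of highest fold among these are given as 30 bases of GRCh37 on the gene's strand, with AAGATGG in capitals, to show what these sites share.
KANSL2 at chr12:49075950-49075979, minus strand: agctcctgaggtAAGATGGcggtgctcttt
NUP160 at chr11:47869856-47869885, minus strand: ggcgacggcgggAAGATGGcggcggcggga
FKBP3 at chr14:45603645-45603674, minus strand: aggcagcgggggAAGATGGcggcggccgtt
PPRC1 at chr10:103892811-103892840, plus strand: tgttcaggggccAAGATGGcggcgcgccgg
MAP1S at chr19:17830297-17830326, plus strand: cggggcggcccgAAGATGGcggcggtggct
HDAC1 at chr1:32757756-32757785, plus strand: cgggaggcgagcAAGATGGcgcagacgcag
The DDX23-/- summit lay 237 bp from the gene start at NUP160, a nuclear pore scaffold gene. At FKBP3, an FK506-binding prolyl isomerase gene, it lay 862 bp from the gene start. In both the summit was within 1 bp of the A of the start codon. At PPRC1, a coactivator related to PGC-1, and MAP1S, a microtubule-associated protein gene, it lay 3 bp past and 2 bp before that A. At HDAC1, a histone deacetylase, and KANSL2, a subunit of the NSL acetyltransferase complex, it lay 30 and 45 bp before it. In wild-type, POLK-/- and DDX23-/- order, NUP160 had folds of 20.1, 9.98 and 34.7, HDAC1 13.4, 9.49 and 25.6, and KANSL2 18.4, 26.1 and 41.6.

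Of the wild-type downstream peaks, 253, at 252 genes, overlapped downstream peaks of both other lists. The 10 genes with the highest geometric mean fold over the lists are described with their folds in wild-type, POLK-/- and DDX23-/- order. PLXDC1, a plexin-domain membrane protein gene, led with 45.6, 66.3 and 77.9, from 158, 359 and 371 fragments, at a summit 564 to 585 bp into the gene record. SACM1L, a phosphoinositide phosphatase, had 43.2, 42.8 and 43.8, the smallest range among the 10. ENSG00000259060, a protein-coding record with no symbol, had 25.2, 56.0 and 45.6, and SHF, an SH2-domain adaptor, had 23.5, 33.4 and 71.7. DPP9, a serine dipeptidase, had 17.4, 54.3 and 58.9, and MAP1LC3B, whose product coats autophagosomes, had 25.1, 50.2 and 40.3. The wild-type fold was the lowest in 5 of these 6, and so was the plain enrichment without the added 1, while at SACM1L the plain enrichment was highest in wild-type (117, 67.6 and 71.1). WDR74, a ribosome biogenesis factor, went against that with 37.8, 41.7 and 27.9, as did LUC7L2, a U1 snRNP-associated factor, with 43.4, 35.9 and 27.3. At WDR74 the order of wild-type and POLK-/- turned in plain enrichment, at 89.0, 65.9 and 34.6. PCDH9, a protocadherin, had 17.0, 36.8 and 45.2, and TMEM50B, a small transmembrane protein gene, had 23.5, 27.2 and 41.7, with plain enrichments of 42.1, 38.8 and 59.3.

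**Figure D3:**
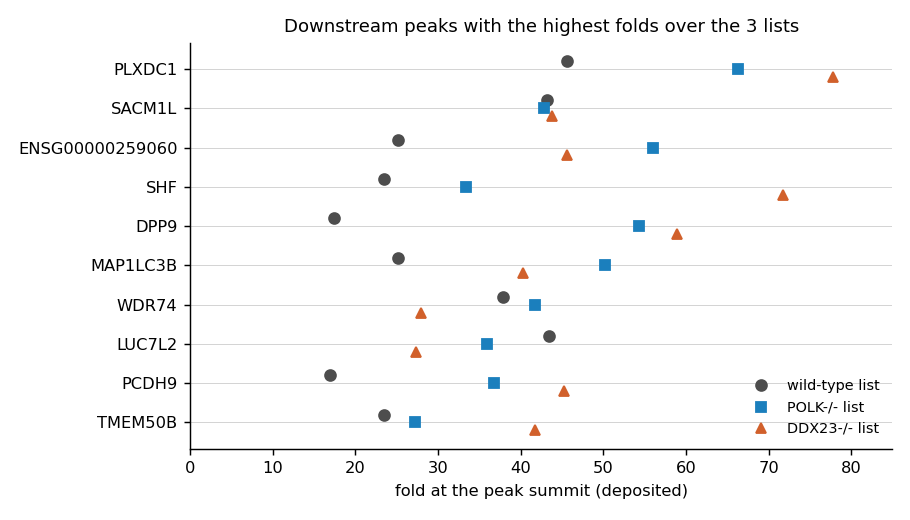
Deposited fold at the summit (x axis) for the 10 genes with the highest geometric mean fold among downstream peaks of all 3 lists (y axis), 1 symbol per list, with no error bar because each list gives 1 value. The wild-type symbol is leftmost at 7 of the 10 genes, and for WDR74 and LUC7L2 the DDX23-/- symbol is; in plain enrichment, not plotted, wild-type was lowest at 6 of the 10.

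These strongest peaks differed from the rest in sequence. Letters of a tRNA-type promoter, an A box followed 24 to 110 bp on by a B box (its form by name alone here), were found in the peaks of 7 of the 10 genes, in 8 of all 252, and in 10 of 430, 12 of 719 and 18 of 1960 downstream peaks. Upstream peaks held both boxes in 33 of 328, 35 of 642 and 45 of 1575, and all peaks of the wild-type list in 267 of 1468. The 300 bp at the summit held 51.7% G and C at PLXDC1, 52.7% at SACM1L, 45.0% at ENSG00000259060 and 47.0% at LUC7L2 in the wild-type list, below the 69.0% median. A match is a description of letters and names no gene, and peaks with no match may still hold such a promoter. To show the B-box letters, the 30 bases around the match nearest the DDX23-/- summit are given on the strand that reads the B box, from GRCh37, with the match in capitals.
PLXDC1 at chr17:37309989-37310018, minus strand: agaggtccccGGTTCAAATCcgggtgcccc
SHF at chr15:45492613-45492642, minus strand: cagcaacctcGGTTCGAATCcgagtcacgg
DPP9 at chr19:4724122-4724151, plus strand: agttgacccgGGTTCGATTCccggccaacg
ENSG00000259060 at chr14:21077497-21077526, minus strand: agaggtcccgGGTTCAAATCccggacgagc
SACM1L at chr3:45730493-45730522, minus strand: gaagattctaGGTTCGACTCctggctggct
MAP1LC3B at chr16:87417630-87417659, minus strand: gaaggtcgtgAGTTCGAGCCtcacacgggg
LUC7L2 at chr7:139025487-139025516, plus strand: agggattgtgGGTTCGAGTCccatctgggg
The match lay 10 to 69 bp from the summit at these 7 genes. At DPP9, SACM1L and MAP1LC3B it read on the strand opposite to the gene, so the downstream position of these peaks was relative to the protein-coding gene and not to the matched letters. GGTTCGA, the B-box core among the 10 motifs, stood on either strand in 3.02%, 1.81% and 1.48% of downstream windows, in 8.84%, 4.98% and 3.11% of upstream windows and in 1.02%, 1.02% and 1.04% of all starts. The WDR74 peak overlapped RNU2-2P, annotated as a small nuclear RNA, in all 3 lists. Without peaks holding both boxes the median fold was 7.14 in the wild-type list and the median skew 0.0979.

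Wild-type downstream peaks were mostly found again in the other lists, at about the rate of all peaks. Of the 430, 324 (75.3%, 71.0 to 79.4) were overlapped by a POLK-/- peak by at least 1 bp, where the background over all 1468 wild-type peaks was 76.9%. A DDX23-/- peak overlapped 414 (96.3%, 94.0 to 97.9), against a background of 92.7%. In the other direction 322 of 719 POLK-/- downstream peaks (44.8%, background 45.5%) were overlapped by a wild-type peak, and 685 (95.3%, 93.5 to 96.7, background 92.4%) by a DDX23-/- peak. Of the 1960 DDX23-/- downstream peaks, 412 (21.0%, background 22.6%) were overlapped by a wild-type peak and 701 (35.8%, 33.6 to 37.9, background 38.1%) by a POLK-/- peak. The shares differ with direction because the lists differ in length, and with the 1468 peaks of smallest p in each list the 6 shares ran from 58.4% to 72.4%.

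Downstream peaks that were not found again were weaker. The 106 wild-type downstream peaks with no POLK-/- peak had a median fold of 6.02 (5.88 to 6.36) and 10 fragments, against 8.01 (7.62 to 8.20) and 14 fragments for the 324 with one. They also lay further from the gene start, at a median of 151 bp (94 to 213) against 77.5 bp (67 to 93). In the DDX23-/- list, downstream peaks overlapped by a wild-type peak had a median fold of 12.9 (12.2 to 13.5) at 67 bp (57 to 81), and those not overlapped 6.71 (6.55 to 6.82) at 113.5 bp (101 to 132). GC skew of the last 2 groups, 0.109 (0.0846 to 0.121) and 0.0872 (0.0762 to 0.0952), had overlapping intervals. Counted by gene and not by overlap, 2096 genes had a downstream peak in any list and 253 in all 3.

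Few downstream peaks of the 2 shorter lists overlapped nothing in the others. Wild-type had 13 of 430 (3.02%, 1.62 to 5.11), where the background over all its peaks was 6.88%, and POLK-/- had 32 of 719 (4.45%, 3.06 to 6.23, background 7.34%). DDX23-/-, the longest list, had 1166 of 1960 (59.5%, 57.3 to 61.7, background 58.0%). The 4 of highest fold in the wild-type list were at ACTRT3 (9.54, 14 fragments), an actin-related gene, MTFR1L (7.47, 11 fragments), a mitochondrial fission regulator-like gene, EFCAB14 (6.61, 10 fragments), an EF-hand gene, and DAAM2 (6.23, 9 fragments), a formin. In the POLK-/- list they were at PDE7A (7.81, 19 fragments), a cyclic AMP phosphodiesterase, CMSS1 (7.49, 19 fragments), MRPL1 (7.45, 29 fragments), a mitochondrial ribosomal protein, and PCYOX1 (7.31, 18 fragments), a prenylcysteine oxidase. The DDX23-/- list reached far higher, with CAMK1D (26.3, 118 fragments, Poisson interval 97.7 to 141), a calmodulin-dependent kinase, PTPN1 (17.1, 64 fragments), a tyrosine phosphatase, ENTREP3 (16.8, 80 fragments) and VASP (15.9, 71 fragments), an actin regulator. The first of these stood 41 bp into the gene on sequence with a GC skew of 0.387.

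Folds at downstream peaks shared between lists were then set side by side. At 278 loci with a downstream peak in both the wild-type and POLK-/- lists, the median ratio of POLK-/- to wild-type fold was 1.17 (1.08 to 1.23), and it was 1.22 over all 1129 shared peaks. The direction of that ratio depends on the 1 added to both terms of the deposited fold. Recovered fragments over background without it gave 0.847 (0.770 to 0.940). Ratios were therefore divided by the median over all shared peaks, and a peak was called higher or lower past 1.5-fold on that relative scale. Relative to all shared peaks, 26 of 278 (9.35%, 6.20 to 13.4) were higher in the POLK-/- list, where the background was 18.1%, and 66 (23.7%, 18.9 to 29.2) were lower, where it was 18.2%. Leaving out downstream peaks with A-box and B-box letters gave 22 higher and 66 lower of 269. The dividing median and the background still included such peaks. These counts therefore do not show how downstream peaks would compare with a background free of those letters. DDX23-/- over wild-type gave a median of 1.71 (1.59 to 1.81) at 356 loci, with 73 higher (20.5%, background 20.3%) and 58 lower (16.3%, background 18.1%), both near the background. DDX23-/- over POLK-/- gave 1.49 (1.43 to 1.57) at 603 loci, with 112 higher (18.6%, background 18.1%) and 76 lower (12.6%, 10.1 to 15.5, background 17.7%). Summits of shared downstream peaks differed by a median of 28 to 29 bp in the 3 comparisons. These comparisons share lists with each other and are not independent.

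**Figure D4:**
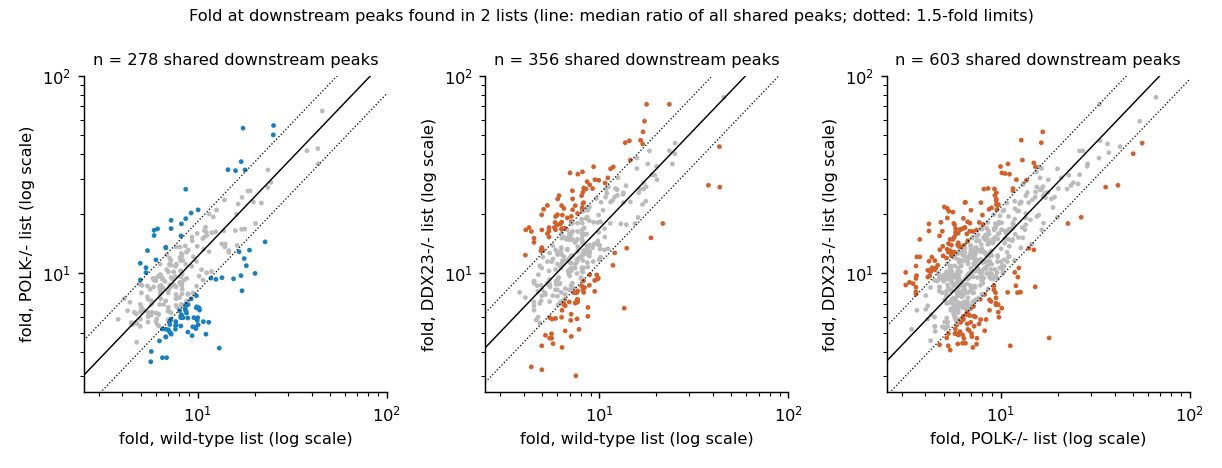
Deposited fold in 1 list (x axis, log scale) against another (y axis, log scale) at downstream peaks found in both, with 278, 356 and 603 loci. The solid line is the median ratio over all shared peaks and the dotted lines its 1.5-fold limits, and points past them are coloured; the left panel has 26 coloured points above and 66 below.

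The highest ratios of POLK-/- to wild-type fold were at DPP9 (17.4 to 54.3), RREB1 (8.64 to 26.6), a zinc-finger factor of Ras signalling, and NSMCE1 (5.88 to 16.5), a subunit of the SMC5/6 complex. The lowest ratios were at PCNP (13.0 to 4.18), a PEST-containing nuclear protein, H1-4 (11.1 to 4.91), a linker histone, and AARS2 (17.1 to 8.15), the mitochondrial alanyl-tRNA synthetase. PCNP rested on 21 wild-type fragments (13.0 to 32.1) and 27 POLK-/- fragments (17.8 to 39.3), before the lists' different scaling. From wild-type to DDX23-/- the highest ratios were at SRA1 (7.01 to 32.2), a steroid receptor coactivator gene, POLD2 (5.08 to 21.1), the accessory subunit of Pol δ, and MAST4 (5.32 to 22.1), a kinase. The lowest were at S1PR1 (7.53 to 3.03), a sphingosine-1-phosphate receptor, ENSG00000263809 (13.6 to 6.65) and LUC7L2 (43.4 to 27.3). Between the knockout lists, RCOR3 (5.04 to 21.7), a corepressor, PCNP (4.18 to 17.8) and FAM8A1 (5.22 to 21.3) were highest for DDX23-/- over POLK-/-. TERF1 (18.0 to 4.70), a telomere-binding protein, KBTBD6 (11.2 to 4.29), a cullin-3 adaptor, and TRPC1 (15.2 to 8.53), a cation channel, were lowest. PCNP appeared at both ends because the POLK-/- value was low between 2 higher ones. None of these single ratios has a replicate.

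By function, several groups of genes had downstream peaks more often than all genes, though most groups were small and were described by counts alone. Over all 17485 eligible genes the background was 2.45% for wild-type, 4.07% for POLK-/- and 11.0% for DDX23-/-. Genes of DNA replication and translesion synthesis had one at 4, 6 and 14 of 32 genes, or 12.5% (3.51 to 29.0), 18.8% (7.21 to 36.4) and 43.8% (26.4 to 62.3). POLD2 (folds of 5.08, 8.68 and 21.1), MCM6, a subunit of the replicative helicase (7.68, 7.42 and 12.9), and TIMELESS, a fork-protection factor (5.04, 6.71 and 12.1), were in all 3 lists. Subunits of RNA polymerases had one at 4, 4 and 5 of 21 genes, with POLR2J at 8.72, 12.8 and 13.4 and POLR2J3 at 9.84, 11.5 and 14.6. POLR2C, another subunit of RNA polymerase II, was in the knockout lists at 5.77 and 16.8. POLR2J and POLR2J3 are near-identical copies, so the assignment of fragments between them is uncertain.

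Genes of translation showed mixed shares. Cytosolic ribosomal protein genes had a downstream peak at 3, 7 and 18 of 70 genes, the last 25.7% (16.0 to 37.6), with RPLP0 at 7.68, 11.0 and 16.3 and RPL3 at 6.33, 11.1 and 16.7. RPS27L, an RPS27 paralogue, was in 2 lists (6.99 in wild-type, 9.69 in DDX23-/-). Mitochondrial ribosomal protein genes had one at 3, 8 and 16 of 51, the last 31.4% (19.1 to 45.9), with MRPS33 at 11.1, 10.1 and 13.3, MRPL17 at 4.97, 9.25 and 16.6 and MRPS25 at 6.33, 8.37 and 12.5. Translation factor genes had one at 3, 2 and 11 of 56, with intervals that held the background in every list (1.12 to 14.9, 0.435 to 12.3 and 10.2 to 32.4%). EIF5A (6.47 and 6.68), a factor of peptide bond formation, and EIF2B5 (5.80 and 4.95), a nucleotide exchange factor subunit, were in the knockout lists, and EEF1AKMT2 (9.79), a methyltransferase acting on an elongation factor, was in the DDX23-/- list. Proteasome genes had one at 1, 5 and 12 of 36, the last 33.3% (18.6 to 51.0), among them PSMD11 (5.73 and 11.96), a lid subunit, and PSMG1 (7.31 and 8.60), an assembly chaperone, both in the knockout lists, and PSMD8 (6.45 in wild-type and 7.30 in DDX23-/-).

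Spliceosome genes had shares whose intervals lay above the background in all 3 lists, and RNA helicase genes in the POLK-/- and DDX23-/- lists, with no test of a difference between lists. Genes of the DEAD and DEAH box helicases had one at 2, 8 and 14 of 44, or 4.55% (0.555 to 15.5), 18.2% (8.19 to 32.7) and 31.8% (18.6 to 47.6). DDX55, a ribosome biogenesis helicase, had folds of 18.8, 13.1 and 15.1, DDX42, a U2 snRNP-associated helicase, 6.30, 6.95 and 13.2, and DDX39B, an mRNA export helicase, 8.65 and 12.3 in the knockout lists. Spliceosome protein genes had one at 5, 7 and 14 of 65, or 7.69% (2.54 to 17.0), 10.8% (4.44 to 20.9) and 21.5% (12.3 to 33.5), with SNRPB, a core Sm protein, at 6.98, 7.96 and 10.3 and SNRNP48 at 8.20, 6.96 and 8.25. The hnRNP genes had one at 1, 2 and 3 of 18, with intervals that held the background in every list. HNRNPLL (10.1 and 18.0) and HNRNPC (7.45 and 4.37) were in the knockout lists, and HNRNPM (9.79) in the DDX23-/- list.

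Immediate early genes had one at 4, 7 and 9 of 37, or 10.8% (3.03 to 25.4), 18.9% (7.96 to 35.2) and 24.3% (11.8 to 41.2). CCNL1, a cyclin that binds splicing kinases, had folds of 8.28, 8.31 and 12.6, while FOSL2, an AP-1 subunit (6.47 and 22.8), and IER5 (6.71 and 11.2) were in the knockout lists. Heat shock and chaperone genes had one at 4, 6 and 11 of 61, with intervals that held the background in every list (1.82 to 15.9, 3.70 to 20.2 and 9.36 to 30.0%). They were led by HSPA5, the chaperone of the endoplasmic reticulum, at 17.1, 16.7 and 52.0, then DNAJC13 at 6.78, 4.76 and 13.2 and DNAJC8 at 7.12, 5.50 and 10.3. Cyclins and cyclin-dependent kinases had one at 3, 3 and 11 of 38, with CCND1, the G1 cyclin, at 7.82, 6.70 and 5.20 and CCNC, a Mediator kinase module cyclin, at 6.61 and 6.27 in the knockout lists. Chromatin modifiers had one at 3, 5 and 19 of 90, the last 21.1% (13.2 to 31.0), led by HDAC1 with the folds given above, then EZH1, a Polycomb methyltransferase, at 7.32, 9.39 and 7.97 and KDM8 at 10.6 and 16.4 in the knockout lists.

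The zinc-finger, HOX and histone groups also had intervals that held the background in every list. Zinc-finger genes named ZNF had a downstream peak at 6 of 457 for wild-type (1.31%, 0.483 to 2.84), 16 for POLK-/- (3.50%) and 50 for DDX23-/- (10.9%, 8.23 to 14.2), with ZNF543 at 8.63, 6.47 and 13.4, ZNF644 at 4.97, 5.38 and 13.0 and ZNF703 at 5.46, 5.66 and 8.35. HOX genes had one at 1, 2 and 3 of 39. HOXB8, a developmental homeobox factor, had 9.93, 15.9 and 19.7, and HOXD13 (10.9 in DDX23-/-) and HOXB13 (4.99 in POLK-/-) were each in 1 list. Replication-dependent histone genes, which are short and lack introns, had one at 2, 2 and 1 of 40. The linker histone H1-2 had folds of 20.2, 17.9 and 29.8, while H1-4 was a downstream peak in the wild-type (11.1) and POLK-/- (4.91) lists. Histone genes are near copies of each other, so fragments may be shared among them.

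**Figure D5:**
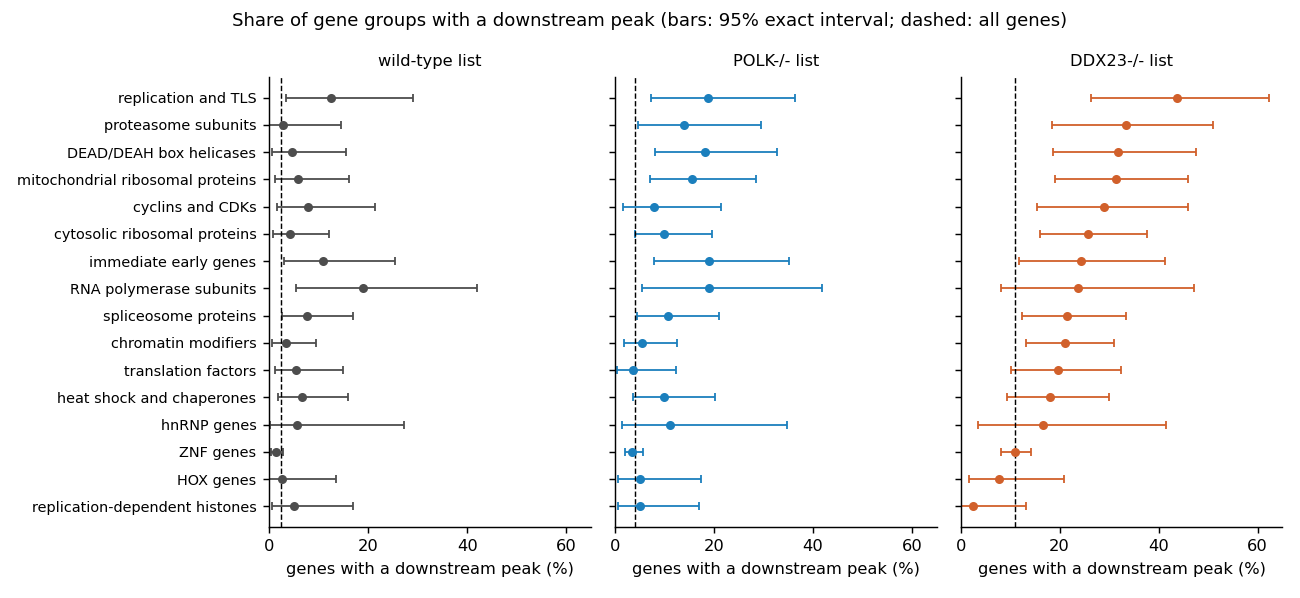
Share of the genes of 16 groups that had a downstream peak (x axis, %), 1 panel per list, with 95% exact binomial intervals as bars and the share of all 17485 eligible genes as a dashed line at 2.45%, 4.07% and 11.0%. Replication and translesion synthesis genes stand highest in the DDX23-/- panel at 43.8%, and replication-dependent histone genes lowest at 2.50%.

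The 2 genes knocked out in the study were looked up within 10 kb of their records. POLK had no downstream peak in any list. It had an upstream peak in the wild-type list, 191 bp before the start (fold 6.36, 9 fragments, 4.12 to 17.1), and another in the DDX23-/- list, 274 bp before it (6.71, 29 fragments, 19.4 to 41.6), and none in the POLK-/- list. DDX23 had 1 downstream peak, in the DDX23-/- list, 649 bp into the gene record (5.69, 24 fragments, 15.4 to 35.7). That summit lay before the first base of the canonical transcript. DDX23 had no peak in the wild-type or POLK-/- lists. Absence from a list says that no peak was called there.

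Annotated small RNA genes lay under a few downstream peaks. Besides RNU2-2P at WDR74 these were microRNA records. In the POLK-/- list they were MIR2110 at CCDC186 (fold 5.96), MIR1538 at NFAT5 (8.60), MIR1292 at NOP56 (5.24) and MIR3661 at PPP2CA (10.1). The DDX23-/- list held MIR1538 at NFAT5 (12.3), an osmotic stress factor gene, and MIR3661 at PPP2CA (16.6), a phosphatase catalytic subunit gene, again. Among others it added MIR3652 at HSP90B1 (4.03), MIR4515 at BTBD1 (5.03), MIR3615 at NHERF1 (5.83) and records with clone names at KIF21A (6.93), DDHD1 (7.10) and RNPS1 (17.9). The lists do not say which of the overlapping genes a peak belongs to.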

How the data were processed

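ChIP-seq peaks of untreated HEK293T cells were analysed from 1 deposited list for each of 3 genotypes. The submitters' processing notes name hg19, Bowtie2, MACS2, bedtools and deepTools, without versions or roles, and the threshold, the control and any pooling of libraries are not given in the sources used here. Each deposited peak carried a fold, the ratio of fragments to local background with 1 added to both terms. The −log10 p and −log10 q of each peak were used as deposited, and the deposited score was 10 times the −log10 q. Whole fragments at the summit were recovered from the fold and p for 1468 of 1468, 2451 of 2451 and 5941 of 5945 peaks, after a check on simulated data. The total depth of each library is unknown.

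Summits were placed against 20163 protein-coding starts of GENCODE 44 on GRCh37, of which 17485 had no opposite-strand start within 1 kb. GC skew, G-quadruplex letters and motifs were read in 300 bp around the summit. Intervals are 95% exact binomial (Clopper-Pearson), exact Poisson for fragments and order-statistic for medians, and cover counting error only. No test was run, since each genotype had 1 list. Genes were named by fixed rules: the 10 of highest geometric mean fold in all 3 lists, the 3 highest and lowest ratios per comparison, the 4 strongest peaks of 1 list only, up to 3 per gene group, the peaks nearest the limits of the rule, POLK and DDX23, and peaks over small RNA genes. The start-codon sites, the A-box and B-box letters and the printed windows were chosen after values were seen. A few genes that these rules name are not reported here. Sequences on chromosome 8, or reaching past the 300 bp, were not printed. The members and gene lists were chosen with earlier results of these data known. Alternatives changed the q threshold, the number of peaks, the distance, the start annotation, the overlap, the fold and the window. Python 3.11.15 with numpy 2.4.6, pandas 2.3.3, scipy 1.17.1 and matplotlib 3.10.9 was used.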

Additional observations from a re-analysis of the deposited data

How the results depend on the processing

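No paired analysis was possible because 1 list stood for each genotype, and for the same reason no replicate could be left out. Of 171 alternative values for 30 results, 102 stayed within the limits set for a change, 68 moved and 1 reversed. Values follow in wild-type, POLK-/- and DDX23-/- order, and overlap shares in the order of wild-type in POLK-/-, wild-type in DDX23-/-, POLK-/- in wild-type, POLK-/- in DDX23-/-, DDX23-/- in wild-type and DDX23-/- in POLK-/-.

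The reversal came from the plain enrichment, without the 1 added to both terms, under which the median POLK-/- over wild-type ratio was 0.847. That scale put the median fold at 14.8, 10.7 and 10.8 and the DDX23-/- over wild-type ratio at 1.24. With a −log10 q of at least 5, downstream peaks were 26.8% of the wild-type list, the median fold was 8.14, 7.44 and 7.81, the DDX23-/- first-intron share was 11.5%, and 18.2% and 33.3% of DDX23-/- downstream peaks were overlapped by wild-type and POLK-/- peaks.

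With the same number of peaks in each list, the 6 overlap shares were 58.4%, 61.9%, 61.9%, 72.4%, 63.0% and 70.1%. For POLK-/- and DDX23-/- in turn, downstream peaks were 27.4% and 28.7% of the list, the median distance was 77 and 64.5 bp, the median fold 8.89 and 14.8 and the first-intron share 9.20% and 7.58%. The median ratio was 1.26 for POLK-/- over wild-type, 2.09 for DDX23-/- over wild-type (40 higher, 26 lower) and 1.67 for DDX23-/- over POLK-/- (42 higher, 21 lower).

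With a limit of 500 bp, downstream peaks were 25.4%, 25.3% and 27.9% of the lists, the median distance was 72, 69 and 73.5 bp, and the DDX23-/- first-intron share was 11.1%. Measured from any annotated transcript start, the shares of the lists were 24.6%, 24.6% and 28.1%, the median distance 27, 26.5 and 25 bp and the first-intron share 13.9%, 14.7% and 16.2%. Under that start, 16 shared peaks were higher and 38 lower for POLK-/- over wild-type, 46 were higher for DDX23-/- over wild-type, and for DDX23-/- over POLK-/- 65 were higher at a median ratio of 1.41.

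A reciprocal overlap of 50% gave overlap shares of 64.7%, 74.2%, 38.2%, 85.8%, 16.6% and 32.2%. Past 2-fold, 6 shared peaks were higher and 19 lower for POLK-/- over wild-type, 17 and 18 for DDX23-/- over wild-type, and 32 and 20 for DDX23-/- over POLK-/-. In 100 bp around the summit the median skew was 0.155, 0.155 and 0.143. Leaving out downstream peaks with A-box and B-box letters, an alternative chosen after seeing the data, moved none of 15 values. The median ratio over all shared peaks, used as divisor, still included peaks with those letters. The weakest downstream peaks rested on 6, 11 and 14 fragments, and a locus without a peak may have been below what the depth of its library could show.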
